A study of Mus musculus with 10 samples.

Results

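The 10 genes described here are Atf4, which encodes a transcription factor of the amino acid and integrated stress response, and 9 genes commonly grouped with it: Ddit3, Phgdh, Psat1, Shmt2, Mthfd2, Asns, Trib3, Chac1 and Sesn2. They were taken from the deposited gene table by gene name, and are 10 of 54532 genes. Ddit3 was listed a second time in the table, as ENSMUSG00000116429, at 0 in every lung, so 11 entries carried these names and the entry with signal was used. In lungs with increased pulmonary blood flow the 10 genes did not move as a block. Atf4 and 3 genes of serine synthesis and mitochondrial folate metabolism (Phgdh, Psat1 and Mthfd2) rose, Asns, Trib3 and Chac1 fell, and Ddit3, Shmt2 and Sesn2 did not pass the test.

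The lungs came from wild-type C57/BL6 mouse pups of postnatal day 14 (P14), male or female by the methods, 5 lungs in each group. In the IncPBF group (increased pulmonary blood flow) the abdominal aorta had been punctured through into the inferior vena cava at P7, which leaves a fistula that returns extra blood to the right heart and the lung, and sham pups had the same operation without the puncture. RNA of whole lung was sequenced in bulk, so a lower value can mean fewer cells of a type or less RNA per cell, and these cannot be told apart. Neither litter nor date of surgery is given for the lungs, and the spread within a group is the spread between lungs labelled as separate samples.

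When amino acids run short or unfolded protein gathers in the endoplasmic reticulum, kinases phosphorylate the translation factor eIF2, which slows protein synthesis in general but lets ribosomes translate the Atf4 mRNA better. ATF4 protein, paired with partners of the C/EBP family, then binds DNA and switches on genes that make, import and charge amino acids, together with genes that limit the response. Control of ATF4 is thus largely at the level of translation, and the amount of its mRNA, measured here, is not the amount of its protein. In growing tissue the serine and folate enzymes of the group also supply carbon units for the synthesis of nucleotides.

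Expression is given as FPKM, fragments per kilobase of gene with a scaling of each lung by the authors. A fragment on 1 kb was worth 0.0517 FPKM in IncPBF lung 1 (18285719 fragments on genes) and 0.0557 FPKM in sham lung 1 (18262206). The scaling thus did not follow the fragments on genes alone, and its basis is not given in the sources used here. Whole fragments could be recovered from all values, and 16103423 to 20318525 fragments lay on genes per lung. Genes with a mean of at least 0.5 FPKM were tested with limma on log2(FPKM + 0.1), with Benjamini-Hochberg adjustment over all 15388 of them and a threshold of 0.05. All 10 genes passed the filter on the mean. The thinnest value, Chac1 in an IncPBF lung, rested on 29 fragments.

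In this fit 7 of the 10 genes were called, 4 higher and 3 lower in IncPBF. Over all genes tested 4970 were called, which is 32.3%, with 16.1% higher and 16.2% lower. When each lung was instead scaled to an equal total on genes, 66.6% of the calls over all genes were rises, against 49.9% with the scaling of the authors. Groups without overlap, with every IncPBF lung above or every one below the whole sham range, were seen in the same 7 genes, against 23.2% of all genes tested. The median log2 fold change was 0.08 for the 10 genes and 0.01 for all genes tested, and the median absolute log2 fold change was 0.44 against 0.20. For all called genes that absolute median was 0.41.

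The lungs also differed in sex-linked RNA. In IncPBF lungs 2 to 5 the level of Xist, the RNA that silences an X chromosome, was 52.4 to 66.5 FPKM. In IncPBF lung 1 it was 0.0144 FPKM, and no sham lung was above 0.0770 FPKM. The Y-linked Ddx3y had the opposite pattern, 18.6 FPKM in IncPBF lung 1, 21.8 to 24.6 FPKM in sham and no more than 0.00926 FPKM in the remaining IncPBF lungs. Sex and group thus part only in IncPBF lung 1. In each of the 7 called genes this lung lay beyond every sham lung, which the lack of overlap already implies. Among all called genes it lay beyond every sham lung in the direction of the call in 91.8%. With log2 Xist as a covariate 2 of the 7 calls were kept, those of Phgdh and Psat1, while the directions of all 7 stayed. Of all genes tested 741 were called with this covariate, against 4970 without it. The standard errors of all 7 widened, from 0.06 to 0.10 for Asns, the smallest, and from 0.14 to 0.23 for Chac1, the largest.

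**Figure D1:**
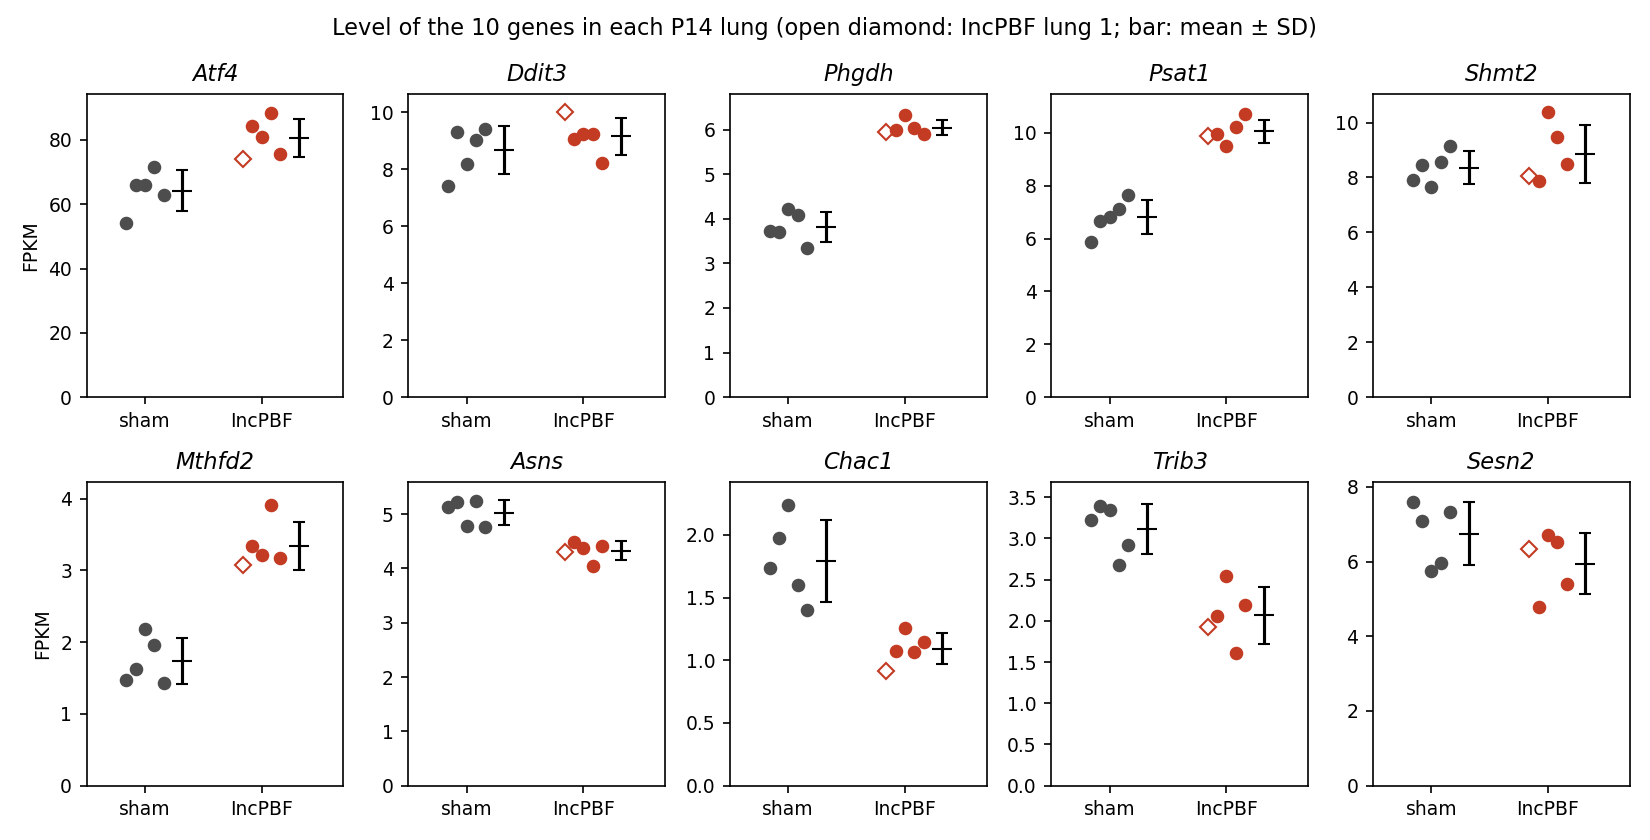
Level of each of the 10 genes in FPKM (vertical axes, from 0) in the 5 sham and 5 IncPBF lungs, 1 point per lung, with mean ± SD as bars and IncPBF lung 1 as an open diamond. The groups are apart in 7 panels (Atf4, Phgdh, Psat1 and Mthfd2 higher, Asns, Chac1 and Trib3 lower) and overlap for Ddit3, Shmt2 and Sesn2.

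The promoters were searched for the letters TGATGNAA on both strands, with N any base. TGATGCAA is the core shared by the composite C/EBP and ATF elements that ATF4 binds, and the looser form also takes in the element of Asns, so that every TGATGCAA is also a match of TGATGNAA. Windows from 250 bases before to 50 bases after each RefSeq start site (GRCm38.p6) were available for all 10 genes. A match lay in 3 of the 10, Chac1, Asns and Trib3, which are the 3 genes that fell. Because the looser form takes in the element of Asns, the match in Asns was fixed in advance. Over all 27025 genes with a window, 4.51% held a match.

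The stretches that hold the match are shown for these genes, followed by a gene that rose, Phgdh, whose window holds none. They read 5′ to 3′ along the strand of the gene, with the matched letters in capitals. The window of Chac1 is at chr2:119350992-119351241 (plus strand), the stretch of Asns at chr6:7693214-7693243 (minus strand), that of Trib3 at chr2:152344028-152344057 (minus strand) and the window of Phgdh at chr3:98339970-98340219 (minus strand).
Chac1: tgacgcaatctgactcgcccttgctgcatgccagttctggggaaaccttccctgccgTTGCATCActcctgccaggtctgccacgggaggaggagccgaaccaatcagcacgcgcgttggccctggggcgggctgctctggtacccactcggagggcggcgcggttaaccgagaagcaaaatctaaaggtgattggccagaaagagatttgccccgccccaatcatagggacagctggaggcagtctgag
Asns: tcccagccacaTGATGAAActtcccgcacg
Trib3: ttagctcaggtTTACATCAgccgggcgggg
Phgdh: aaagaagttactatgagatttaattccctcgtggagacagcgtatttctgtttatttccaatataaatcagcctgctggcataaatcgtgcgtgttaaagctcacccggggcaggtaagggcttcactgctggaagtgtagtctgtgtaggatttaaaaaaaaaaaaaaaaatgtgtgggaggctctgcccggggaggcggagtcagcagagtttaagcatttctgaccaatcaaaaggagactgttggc

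In Chac1 the match TTGCATCA, which is TGATGCAA read on the other strand, lies at positions -193 to -186 from the start site. In Asns it is TGATGAAA at -23 to -16, which is inside the bounds of the gene in the table, whose start lies further upstream, and in Trib3 TTACATCA at 15 to 22, after the RefSeq start site but upstream of the gene's start in the table. With only the bases before the start, 2 of the 10 genes kept a match. TGATGCAA itself was found in Chac1 alone among the 10, and in 1.03% of all genes with a window. A match is a run of letters and not a site shown to be bound, and the lack of one in the other 7 windows says only that these letters are not there.

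Atf4 (ENSMUSG00000042406, chr15:80255184-80257541, plus strand) had the highest level of the 10 genes in both groups. It was 73.9, 84.5, 80.9, 88.2 and 75.7 FPKM in IncPBF lungs 1 to 5. In sham lungs 1 to 5 it was 54.3, 66.1, 65.9, 71.7 and 62.9 FPKM. The lowest IncPBF lung was just above the highest sham lung, so that the groups did not overlap but nearly touched. The means were 80.6 ± 5.96 and 64.2 ± 6.38 FPKM (SD, n = 5 each). This is a log2 fold change of 0.33 (standard error 0.08, 95% interval 0.16 to 0.50, adjusted p = 0.00816 from limma), and 0.20 with log2 Xist as a covariate (adjusted p = 0.421).

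Ddit3 (ENSMUSG00000025408, chr10:127290774-127296288, plus strand) encodes CHOP, a C/EBP-type factor that ATF4 induces under lasting stress. Its level was 10.02, 9.06, 9.26, 9.24 and 8.21 FPKM in the IncPBF lungs. The sham lungs had 7.42, 9.33, 8.19, 9.04 and 9.42 FPKM. The groups overlapped through most of their range, with means of 9.16 ± 0.647 and 8.68 ± 0.857 FPKM (SD, n = 5 each). The log2 fold change was 0.08 (95% interval -0.09 to 0.25, adjusted p = 0.465 from limma), and this interval ended below those of Phgdh, Psat1 and Mthfd2. Ddit3 shares 68 bases with Mars on the opposite strand, at 14.1 FPKM, and whether counting used strand is not given in the sources used here. It also shares 2925 bases on its own strand with the second Ddit3 entry, which was at 0 in every lung. How fragments lying on both entries were counted is not given either, so the level of Ddit3 may be understated.

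Phgdh (ENSMUSG00000053398, chr3:98313170-98339990, minus strand) encodes phosphoglycerate dehydrogenase, which takes a glycolytic intermediate into serine synthesis. It was 5.95, 5.99, 6.34, 6.04 and 5.91 FPKM in the IncPBF lungs. It was 3.72, 3.69, 4.21, 4.08 and 3.35 FPKM in the sham lungs. Every IncPBF lung was far above every sham lung, and the IncPBF lungs lay close together, with means of 6.04 ± 0.170 and 3.81 ± 0.342 FPKM (SD, n = 5 each), a ratio of 1.59. On the log2 scale the difference was 0.66 (standard error 0.07, 95% interval 0.51 to 0.80, adjusted p = 6.3e-05 from limma), and with log2 Xist as a covariate it was 0.62 (adjusted p = 0.0209).

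Psat1 (ENSMUSG00000024640, chr19:15904678-15947337, minus strand), the aminotransferase of the next step to serine, also rose. Its levels were 9.87, 9.97, 9.49, 10.2 and 10.7 FPKM in the IncPBF lungs. They were 5.87, 6.66, 6.81, 7.12 and 7.64 FPKM in the sham lungs. The groups were again clearly apart, with means of 10.1 ± 0.448 and 6.82 ± 0.651 FPKM (SD, n = 5 each) and a ratio of 1.47. The log2 fold change was 0.56 (standard error 0.07, 95% interval 0.40 to 0.71, adjusted p = 0.000203 from limma) and 0.54 with log2 Xist as a covariate (adjusted p = 0.0388).

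Shmt2 (ENSMUSG00000025403, chr10:127517123-127522444, minus strand), which turns serine into glycine in mitochondria and loads its carbon onto folate, did not pass the test. It was 8.05, 7.86, 10.4, 9.49 and 8.47 FPKM in the IncPBF lungs. It was 7.92, 8.47, 7.64, 8.58 and 9.16 FPKM in the sham lungs. IncPBF lungs 3 and 4 were above every sham lung while the other IncPBF lungs were within the sham range, and the means were 8.85 ± 1.07 and 8.35 ± 0.595 FPKM (SD, n = 5 each). The log2 fold change was 0.08 (95% interval -0.11 to 0.26, adjusted p = 0.513 from limma). It shares 32 bases with Ndufa4l2 on the opposite strand, at 53.1 FPKM.

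Mthfd2 (ENSMUSG00000005667, chr6:83305691-83325908, minus strand) encodes the mitochondrial enzyme that carries the folate-bound carbon further, and is a gene of fetal and dividing cells. Its levels were 3.07, 3.34, 3.21, 3.91 and 3.18 FPKM in the IncPBF lungs. The sham lungs had 1.47, 1.63, 2.18, 1.97 and 1.43 FPKM. It rose most of the 10 genes and the groups lay well apart, with means of 3.34 ± 0.330 and 1.74 ± 0.325 FPKM (SD, n = 5 each), a ratio of 1.93. Its log2 fold change was 0.92 (standard error 0.12, 95% interval 0.65 to 1.19, adjusted p = 0.000305 from limma) and 0.78 with log2 Xist as a covariate (adjusted p = 0.0664).

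Asns (ENSMUSG00000029752, chr6:7675169-7693254, minus strand), asparagine synthetase and the classic amino acid response gene, showed a small fall. Its levels were 4.31, 4.49, 4.37, 4.05 and 4.42 FPKM in the IncPBF lungs. They were 5.13, 5.22, 4.78, 5.24 and 4.77 FPKM in the sham lungs. All IncPBF lungs were below all sham lungs, with means of 4.33 ± 0.170 and 5.03 ± 0.237 FPKM (SD, n = 5 each), a ratio of 0.861. On the log2 scale the difference was -0.21 (standard error 0.06, 95% interval -0.33 to -0.09, adjusted p = 0.0145 from limma). The call was lost with an equal total per lung (log2 fold change -0.13, adjusted p = 0.0891) and in limma-voom on the recovered fragments (-0.14, adjusted p = 0.198), the direction staying the same, and with log2 Xist as a covariate (-0.21, adjusted p = 0.270).

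Chac1 (ENSMUSG00000027313, chr2:119351229-119354381, plus strand), which breaks down glutathione and is a well-known target of ATF4, had low levels throughout. It was 0.916, 1.08, 1.26, 1.06 and 1.15 FPKM in the IncPBF lungs. It was 1.74, 1.98, 2.24, 1.60 and 1.40 FPKM in the sham lungs. The groups did not overlap, though the highest IncPBF lung was near the lowest sham lung, and the means were 1.09 ± 0.125 and 1.79 ± 0.327 FPKM (SD, n = 5 each), a ratio of 0.610 on 29 to 39 and 40 to 69 fragments per lung. The log2 fold change was -0.66 (standard error 0.14, 95% interval -0.96 to -0.35, adjusted p = 0.00439 from limma) and -0.90 with log2 Xist as a covariate (adjusted p = 0.0536).

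Trib3 (ENSMUSG00000032715, chr2:152337422-152344032, minus strand), a pseudokinase that binds ATF4 and restrains it, fell as well. Its levels were 1.92, 2.06, 2.55, 1.61 and 2.20 FPKM in the IncPBF lungs. They were 3.22, 3.40, 3.35, 2.68 and 2.92 FPKM in the sham lungs. The groups were apart, with means of 2.07 ± 0.346 and 3.11 ± 0.305 FPKM (SD, n = 5 each), a ratio of 0.664. Its log2 fold change was -0.58 (standard error 0.12, 95% interval -0.84 to -0.32, adjusted p = 0.00369 from limma) and -0.66 with log2 Xist as a covariate (adjusted p = 0.103).

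Sesn2 (ENSMUSG00000028893, chr4:132492032-132510501, minus strand) encodes sestrin 2, a leucine sensor that holds back the growth kinase complex mTORC1. It was 6.34, 4.78, 6.70, 6.52 and 5.39 FPKM in the IncPBF lungs. It was 7.60, 7.07, 5.75, 5.95 and 7.34 FPKM in the sham lungs. The groups overlapped and had a similar spread, with means of 5.95 ± 0.826 and 6.74 ± 0.840 FPKM (SD, n = 5 each). The log2 fold change was -0.18 (95% interval -0.43 to 0.06, adjusted p = 0.241 from limma).

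Exact two-sided permutation of the group labels over the 10 lungs gave the same division. For each of the 7 called genes p was 0.00794, the smallest that the design allows, and 0.0343 after adjustment over all genes tested. Any gene whose groups do not overlap reaches this p, so the result repeats the lack of overlap. After adjustment 23.2% of all genes tested were under 0.05 by permutation. The exact permutation p was 0.397 for Ddit3, 0.389 for Shmt2 and 0.175 for Sesn2.

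**Figure D2:**
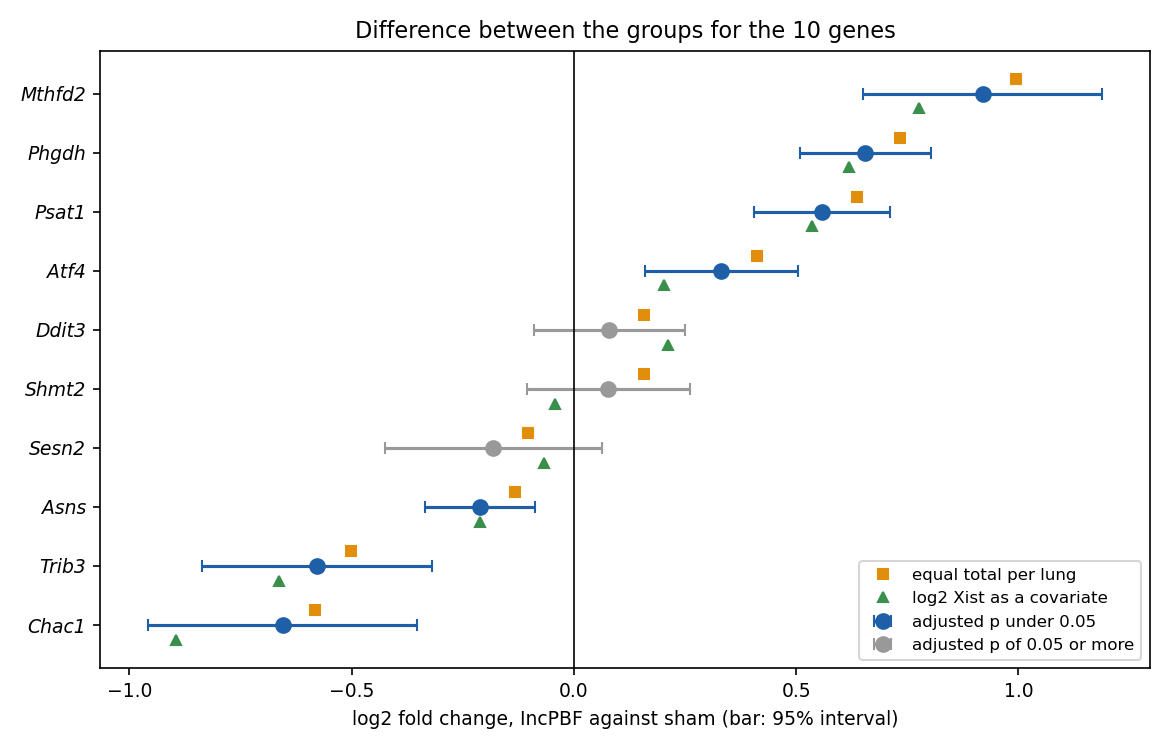
Log2 fold change of IncPBF against sham (horizontal axis) for each of the 10 genes, with the 95% interval of the limma fit as a bar (blue, adjusted p under 0.05; grey, 0.05 or more), and the value with an equal total per lung (orange squares) and with log2 Xist as a covariate (green triangles). The values run from 0.92 for Mthfd2 to -0.66 for Chac1, and of the 10 only Shmt2 changes side in the alternatives drawn, to -0.04 with the Xist covariate.

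Because FPKM is per length, levels can be set beside each other across genes. Atf4, at 64.2 FPKM in the sham lungs, was far above the next gene, Ddit3 at 8.68 FPKM. Ddit3 and Shmt2 (8.35 FPKM) differed by less than their SD, as did Psat1 (6.82) and Sesn2 (6.74), and Chac1 (1.79) and Mthfd2 (1.74). In the IncPBF lungs Psat1, at 10.1 FPKM, stood above Ddit3 (9.16) and Shmt2 (8.85), and Mthfd2 (3.34) stood above Trib3 (2.07) and Chac1 (1.09).

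Within the groups the genes varied mostly apart from each other. Over the 45 pairs the Pearson r of log2 values, taken as deviations from the group mean over the 10 lungs, had a median of -0.04 and ran from -0.51 (Mthfd2 and Sesn2) to 0.79 (Phgdh and Mthfd2). Atf4 was closest to Mthfd2, with an r of 0.71. Chac1 and Trib3 had an r of 0.64, and so had Chac1 and Phgdh, but for the latter pair Spearman's rho was 0.35. Shmt2 and Sesn2, both uncalled, had an r of 0.59. The 6 pairs of genes that both rose had a median of 0.43 and the 3 pairs that both fell 0.36, while the 12 pairs of a riser and a faller had -0.19. The sign of this last median depended on the scaling, and with an equal total per lung it was positive. Asns with Mthfd2 then went from -0.28 to 0.24 and Atf4 with Asns from -0.11 to 0.21, while Trib3 with Psat1 stayed negative (-0.39 and -0.48). The median over all 45 pairs was 0.12 with an equal total. All points share the libraries and their scaling, so these are descriptions without a test.

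**Figure D3:**
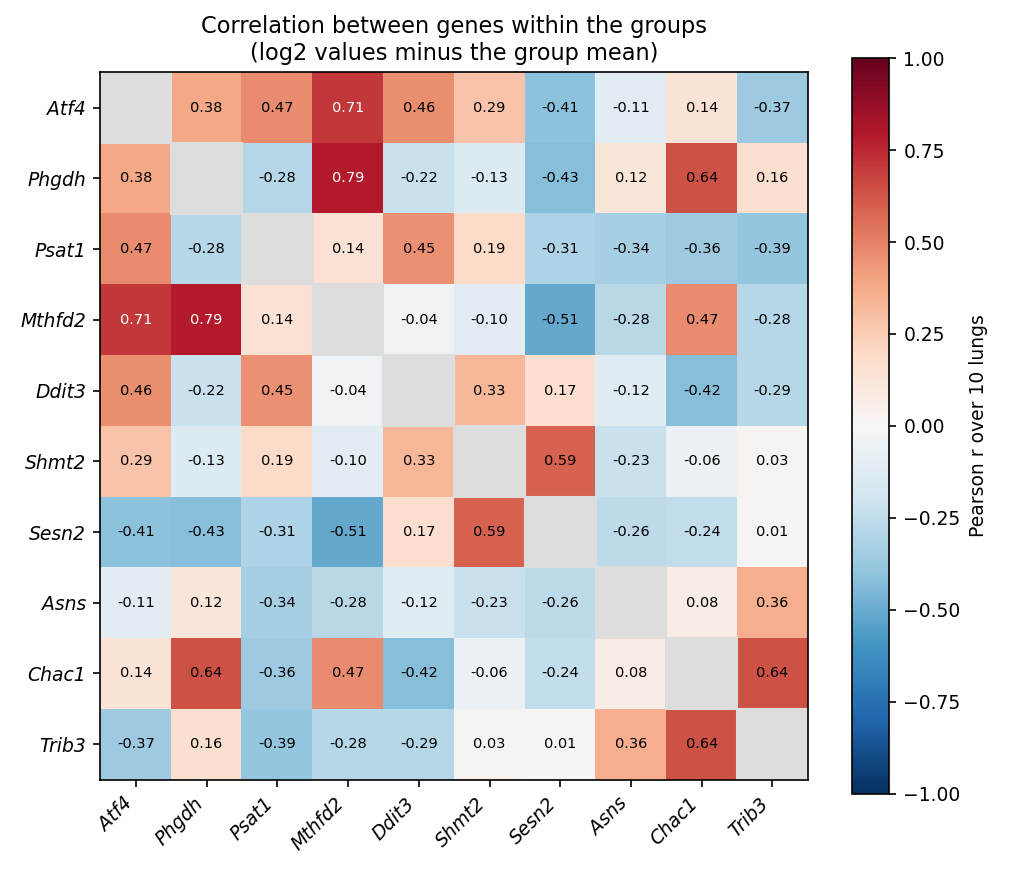
Pearson r for every pair of the 10 genes over 10 lungs, from log2 values minus the mean of the lung's own group, with red for positive and blue for negative r. The strongest squares are Phgdh with Mthfd2 (0.79) and Atf4 with Mthfd2 (0.71), and the lowest is Mthfd2 with Sesn2 (-0.51).

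Among all genes tested, those whose deviations from the group means were most like Atf4 were Zfp944 (r = 0.983), Erh (0.964) and Swi5 (0.957), over 10 lungs. For Mthfd2 they were Higd2a (0.962), Rmdn1 (0.959) and Hpf1 (0.942). They are the highest values among all tested genes outside the 10, which says nothing of a shared function.

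Beyond the 10 genes, 111 further genes of the pathway were taken up in 9 lists, of which 103 passed the filter. Of these 29 were called higher and 21 lower, 48.5% against 32.3% of all genes tested, with a median log2 fold change of 0.03. With an equal total per lung they were 42 and 18, against 3559 and 1782 of all genes tested. With log2 Xist as a covariate 5 of the 50 calls were kept, those of Aldh18a1, Herpud1, Jdp2, Sesn1 and Slc1a5. Of all genes tested 741 were called with this covariate. The calls were most one-sided among the tRNA synthetases and the other stress outputs.

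Of the 7 genes for the eIF2 kinases, the subunits that reverse their action and eIF2 itself, Eif2s1, the eIF2 alpha subunit, rose, from 8.58 ± 0.754 to 10.8 ± 0.696 FPKM (SD, n = 5 each, log2 fold change 0.33, adjusted p = 0.00455 from limma). The other 6 genes, the kinases and phosphatase subunits, were not called, and the median of the list was -0.00. With an equal total per lung 2 genes of the list were called higher, and with quantile normalization 1 higher and 1 lower.

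The 6 partners and related regulators of ATF4 split. Atf3, a stress-induced factor of the same family, was 3.89, 4.76, 4.42, 3.63 and 2.44 FPKM in the IncPBF lungs and 1.42, 2.00, 1.95, 2.04 and 2.35 FPKM in the sham lungs. It rose in every IncPBF lung above every sham lung, with lung 5 barely so (log2 fold change 0.92, standard error 0.18, adjusted p = 0.00266 from limma). Jdp2, a repressor at ATF and AP-1 sites, fell from 22.6 ± 2.50 to 13.96 ± 0.780 FPKM (SD, n = 5 each, log2 fold change -0.68, adjusted p = 0.000115 from limma). Cebpg, which pairs with ATF4 on DNA, fell from 18.8 ± 1.48 to 14.7 ± 0.977 FPKM (SD, n = 5 each, log2 fold change -0.35, adjusted p = 0.00232 from limma), and for neither Jdp2 nor Cebpg did the groups overlap. The log2 fold changes of Atf5 (-0.19, adjusted p = 0.140), Cebpb (-0.08, adjusted p = 0.649) and Nupr1 (-0.32, adjusted p = 0.0736, all from limma) did not pass the test, though Nupr1 did without sham lung 1 (adjusted p = 0.0475) or sham lung 5 (0.0443).

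Serine, glycine and folate enzymes outside the 10 leaned the way of Phgdh, Psat1 and Mthfd2, with 4 higher and 1 lower of 10 tested and a median of 0.18. With quantile normalization 2 were higher and 1 lower, the calls of Mthfd1l and Mthfd2l being lost, and with an equal total per lung 6 and 0. Tyms, which makes thymidylate, rose from 1.39 ± 0.162 to 2.44 ± 0.290 FPKM (SD, n = 5 each, log2 fold change 0.77, adjusted p = 0.000557 from limma). The mitochondrial folate enzymes Mthfd1l (0.30, adjusted p = 0.0456) and Mthfd2l (0.26, adjusted p = 0.0371, both from limma) were close to the threshold. Without 1 of IncPBF lungs 1, 2, 4 and 5 or sham lungs 3 and 5 the call of Mthfd1l was lost (adjusted p up to 0.0945), and without 1 of IncPBF lungs 1, 2, 4 and 5 or sham lungs 1, 2 and 5 that of Mthfd2l (up to 0.0908). The gene that fell was Mthfd1, the cytosolic counterpart, named here after its value was seen (-0.19, adjusted p = 0.0415 from limma), and its call was lost with an equal total per lung, in limma-voom and with a correction for GC content and length.

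Other amino acid enzymes moved both ways, 3 higher and 3 lower of 9. Glul, glutamine synthetase, fell from 218 ± 55.8 to 99.6 ± 8.93 FPKM (SD, n = 5 each, log2 fold change -1.10, adjusted p = 0.000467 from limma). Pycr1 and Aldh18a1, which both act in proline synthesis, rose. Pycr1 went from 1.27 ± 0.235 to 2.82 ± 0.586 FPKM (SD, n = 5 each, log2 fold change 1.08, adjusted p = 0.000472) and Aldh18a1 from 5.02 ± 0.765 to 9.73 ± 0.683 FPKM (SD, n = 5 each, log2 fold change 0.95, adjusted p = 5.19e-05, both from limma). Cth, which makes cysteine, fell by 0.43 on the log2 scale (adjusted p = 0.0132 from limma), and Got1 (0.40) and Gpt (-0.37), named after their values were seen, completed the called genes.

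Amino acid transporters gave 3 higher and 2 lower of 10. Slc1a4, a carrier of alanine and serine, rose from 14.5 ± 1.504 to 21.4 ± 1.46 FPKM (SD, n = 5 each, log2 fold change 0.56, adjusted p = 0.000338 from limma), and so did Slc7a1, for arginine and lysine (0.33 on the log2 scale, adjusted p = 0.00563 from limma). Slc1a5, a glutamine carrier of the same family as Slc1a4, fell from 39.2 ± 2.20 to 28.0 ± 1.40 FPKM (SD, n = 5 each, log2 fold change -0.48, adjusted p = 0.000103 from limma), and Slc6a9, a glycine carrier, fell by 0.47 on the log2 scale (adjusted p = 0.0154 from limma). The last called gene was Slc38a2 (0.27), named after its value was seen.

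Of the 20 cytosolic aminoacyl-tRNA synthetases, which charge tRNA with amino acids, 10 rose and 0 fell in limma. The changes were small, with a list median of 0.18, and the largest among the called genes were Tars (threonine, 0.33), Rars (arginine, 0.30), Dars (aspartate, 0.30) and Hars (histidine, 0.29), with adjusted p between 0.000807 and 0.00424 from limma. The largest difference of the list in size was that of Wars (tryptophan, -0.37), named after its value was seen, which did not pass the test (adjusted p = 0.0660 from limma). Its level was 46.3 FPKM in IncPBF lung 1, where sex and group part, above the sham range of 34.7 to 42.0 FPKM. In IncPBF lungs 2 to 5 Wars was at 26.3 to 27.7 FPKM, below that range. With an equal total per lung 14 rose and 0 fell, and with log2 Xist as a covariate 0 were called, with a median of 0.16. Over all 15388 genes tested 3559 rose and 1782 fell with an equal total, and 328 rose and 413 fell with the Xist covariate.

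Other outputs of stress signalling leaned down, 8 lower and 1 higher of 16 with a median of -0.40. Cdkn1a, the cell cycle inhibitor p21, fell from 26.5 ± 6.72 to 13.4 ± 1.11 FPKM (SD, n = 5 each, log2 fold change -0.95, adjusted p = 0.000927 from limma). Sesn1, a sestrin like Sesn2 and known as a target of p53 and FOXO factors, fell from 26.2 ± 2.66 to 13.6 ± 1.44 FPKM (SD, n = 5 each, log2 fold change -0.94, adjusted p = 3.44e-05 from limma). Stc2, a secreted glycoprotein, was at 0.871 ± 0.166 against 1.66 ± 0.340 FPKM (SD, n = 5 each, log2 fold change -0.85, adjusted p = 0.00330 from limma). Tnfrsf10b, a death receptor, was the riser (0.76 on the log2 scale, adjusted p = 0.00116 from limma).

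Chaperones and signalling genes of the endoplasmic reticulum gave 3 higher and 4 lower of 18 and a median of 0.03. The share called was 38.9%, near the 32.3% of all genes tested. The sensors Atf6 (-0.47, adjusted p = 0.00675 from limma) and Ern1 (-0.39, adjusted p = 0.0196 from limma) fell, and Manf, a secreted stress protein, rose (0.31, adjusted p = 0.00724 from limma). Dnajc3, an inhibitor of the kinase PERK, fell by 0.28 on the log2 scale (adjusted p = 0.0275 from limma), a call lost with an equal total per lung or without 1 of IncPBF lungs 1, 3 and 4 or sham lungs 1 and 5 (adjusted p up to 0.0678). Of 7 mitochondrial stress genes 3 chaperone genes rose, Hspe1 (0.44), Hspa9 (0.31) and Hspd1 (0.26), with adjusted p between 0.00218 and 0.00467 from limma. Oma1, the protease that relays mitochondrial stress to eIF2, fell by 0.31 on the log2 scale (adjusted p = 0.0312 from limma), and this call too was lost with an equal total per lung, and without 1 of IncPBF lungs 2, 3 and 4 or sham lungs 1, 2 and 5 (adjusted p up to 0.0730).

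**Figure D4:**
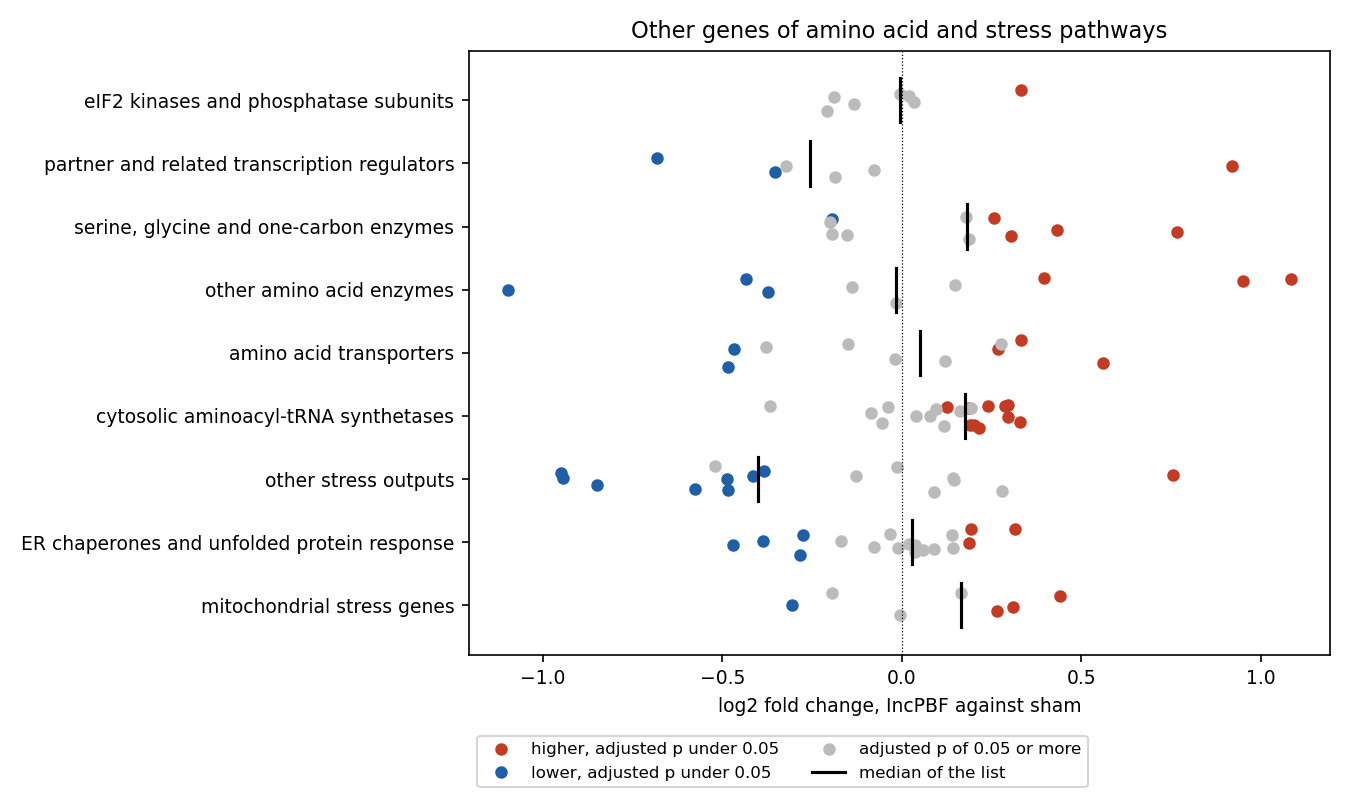
Log2 fold change of IncPBF against sham (horizontal axis) for the 103 tested genes of 9 lists of the wider pathway, 1 point per gene, red and blue for genes called higher and lower in limma, grey for the rest, with the list median as a black bar. The points of the tRNA synthetases lie mostly right of 0 with 10 called higher, and those of the stress outputs mostly left with 8 called lower.

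The letters TGATGNAA stood in promoters of genes that moved either way. Among the wider genes with a window, 9 of 22 called higher held them (40.9%), among them Atf3, Slc1a4, Pycr1 and Tars, as did 3 of 17 called lower (17.6%), which were Herpud1, Jdp2 and Vldlr, and 3 of 40 not called (7.50%). The lists hold known targets of ATF4, several of them through this element. Over all genes tested with a window the shares were 3.04% of those called higher, 3.21% of those called lower and 2.51% of those not called. With only the bases before the start, 6 of 22 wider genes called higher (27.3%) and 3 of 17 called lower (17.6%) held a match. Among those not called it was 3 of 40 (7.50%). Over all genes tested the shares were then 2.61% of those called higher, 2.78% of those called lower and 2.26% of those not called. The 3 matches of Chac1, Asns and Trib3 thus sat in genes that fell, while the wider genes with the same letters included risers and fallers.

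RNA of cell type markers also differed between the groups. All 8 marker genes of dividing cells rose, and their summed level was 92.8 to 110.5 FPKM in the IncPBF lungs against 54.6 to 69.1 FPKM in the sham lungs. With their mean log2 level as a covariate 0 of the 10 genes and 2 of all genes tested were called in limma. The log2 fold changes were then 0.60 for Psat1, -1.07 for Chac1 and -0.63 for Trib3, close to or beyond those without the covariate, but 0.23 for Mthfd2, 0.27 for Phgdh, 0.13 for Atf4 and -0.12 for Asns. Their standard errors ran from 0.16 (Phgdh) to 0.40 (Chac1), so these values do not tell which genes keep a difference. The mean level of the markers itself separated the groups without overlap, so cell division and group cannot be told apart in this fit. Of the markers of alveolar type 1 cells 5 of 6 fell (summed level 949.9 to 1002 against 1188 to 1563 FPKM), of type 2 cells 5 of 7 (11135 to 13771 against 13608 to 16822 FPKM) and of endothelial cells 4 of 6 (976 to 1039 against 1014 to 1318 FPKM). Of mesenchymal markers 2 rose and 1 fell of 6 (572 to 861 against 443 to 552 FPKM), and of erythroid markers 4 of 6 fell (251.6 to 1929 against 1461 to 2445 FPKM). Leukocyte markers, none of 6 called, were at 41.5 to 48.8 against 35.9 to 44.3 FPKM. Both mesothelial markers tested fell (19.1 to 41.6 against 37.1 to 92.1 FPKM). None of 3 club, 6 ciliated and 4 cardiac markers was called, and their sums varied widely between lungs, from 5016 to 10644 against 139.9 to 12529 FPKM for club, 28.8 to 61.6 against 2.08 to 58.5 FPKM for ciliated and 31.9 to 96.1 against 7.23 to 45.2 FPKM for cardiac cells. No marker of these lists was at 0 in all lungs, and the part of any of these cells in the levels of the 10 genes was not tested.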

How the data were processed

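RNA of 10 P14 mouse lungs, 5 IncPBF and 5 sham by the labels, was extracted (by column in the methods, by Trizol in the labels), made into NEBNext libraries and run on a NovaSeq instrument by the authors. The authors deposited FPKM per gene with the gene length. The submitters' processing notes name Bowtie 0.12.2 and the builds GRCm38, mm10 and hg38 without roles; the counting software is not given in the sources used here. Gene positions were the same as in GENCODE M21 on GRCm38 for 98.3% of shared genes. For IncPBF the table's column names abbreviate the condition differently from the titles, so these columns were tied to the group and not to single samples, and lung numbers are those of the columns.

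After division by the worth of 1 fragment in a lung, FPKM times length came out whole in 100% of values (within 0.1 fragment), which gave the fragments on genes, 16103423 to 18285719 in IncPBF lungs 1 to 4, 20318525 in IncPBF lung 5 and 18171494 to 19400575 in the sham lungs. A fragment on 1 kb was worth 0.0482 to 0.0580 FPKM. Mitochondrial genes took 1.77 to 2.29% of fragments in the IncPBF and 1.20 to 1.80% in the sham lungs. Two-sided tests used limma 3.58.1 (lmFit, eBayes with trend) in R 4.3.3 on log2(FPKM + 0.1), all 10 lungs, no covariate, over 15388 genes with a mean of at least 0.5 FPKM, so fold changes of low genes are understated. Exact permutation compared mean FPKM. Correlations, promoter searches and figures used Python 3.11.15, pandas 2.3.3, scipy 1.17.1 and matplotlib 3.10.9. Promoter windows are from RefSeq, 32851 windows of 27025 genes, and 11 of them belong to the 10 genes.

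The 10 genes, the further lists and the markers were chosen with earlier results of these data known, so no pattern in them is independent support. Named were all 10 genes, every regulator of the partner list, up to 4 called genes with the largest change of each further list, the 3 genes most like Atf4 and most like Mthfd2, the called gene of the 10 with the largest change, and Xist and Ddx3y, but 1 gene that this takes in is counted with its list and not reported here by name. On data simulated for this comparison (15281 genes) the test recovered 54.0% of 50 genes changed 1.5-fold and 90.0% of 50 changed 2-fold, with 9 false calls. The spread between lungs beyond counting noise was there set to 1 value for every gene and not taken from these lungs. These shares hold for that setting only. No pair of lungs of a group agreed within sampling noise. Lungs with the same number did not deviate together (r from -0.07 to 0.09), so the numbers were not used as pairs. Alternatives were other pseudocounts, filters and scalings, limma without the trend, limma-voom on the recovered fragments, the replicate block, Xist or dividing-cell markers as covariates, a minimum of 1.5-fold, each lung left out and, chosen after seeing the data, a correction for GC content and length (span 0.5), alone and with the block. Protein sequences were not used here.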

Additional observations from a re-analysis of the deposited data

Results flagged for a closer look

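Of 88 sets of 5 lungs, 44 genes in 2 groups, 2 had a lung that stood apart by Dixon's ratio of its gap to the range, where chance alone marks about 1 in 20. Nupr1, a small stress-induced regulator, was 17.6 FPKM in IncPBF lung 3, the lowest of that group, against 23.1 to 24.3 FPKM in the other IncPBF lungs (ratio 0.824). Aldh18a1, an enzyme of proline synthesis, was 6.34 FPKM in sham lung 3, above 4.38 to 4.92 FPKM in the other sham lungs (ratio 0.723) and still below every IncPBF lung. None of the 10 genes had such a lung in either group. Wars, whose IncPBF lung 1 stood far above the other IncPBF lungs, was not among these 44 genes.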

How the results depend on the processing

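The 7 calls among the 10 genes, 4 higher and 3 lower, stayed 7 when any 1 lung was left out (7 to 7). Of the 111 further genes 43 to 50 were then called and of all genes 3869 to 5234. With log2 Xist as a covariate 2 of the 10 genes, 5 of the further genes and 741 of all genes were called, with the markers of dividing cells as a covariate 0, 0 and 2, and with a minimum of 1.5-fold 3, 10 and 1453. Across these alternatives and the scalings the 7 called genes kept their direction. The signs that changed, none of them with a call under that alternative, were those of Ddit3 with the GC and length correction (-0.0200, also -0.0200 with the block), Shmt2 with Xist (-0.0433), Cebpb with an equal total per lung (0.00275) and in limma-voom (0.00126), and, with the dividing-cell markers, Sesn2 (0.10), Atf6 (0.10), Dnajc3 (0.17) and Oma1 (0.0924). The cause was not tested. With the GC and length correction Nupr1 (adjusted p = 0.0233) and Atf5 (0.0427, both from limma) were called lower. Of calls over all genes 66.2% were rises in limma-voom.

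With the replicate number as a block, which the labels do not tie to a litter or day, 7 of the 10 genes, 45 of the further genes and 4872 of all genes were called (among the further genes Aars, Mthfd1, Mthfd1l, Mthfd2l, Nars and Pdia4 lost their calls), and with the GC and length correction as well 7, 56 and 5287.

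Depth limits Chac1 most, at 29 to 69 fragments per lung, and in the simulation changes of 1.5-fold were found only in part. The sample titles and the table's columns give no batch.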
